A study of Danio rerio with 36 samples.

Results

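Zebrafish embryos that developed under 5 mM methyl tert-butyl ether (MTBE), which is added to petrol, at the highest dose of the study, were compared between the 6-somites stage (about 15 hours post fertilization, hpf) and the 21-somites stage (about 24 hpf). The comparison uses the 6 arrays labelled with that dose and either stage, 3 per stage, of the 36 arrays in the series, and all 15502 probe sets of the array other than the 115 control probe sets. Every group, the controls included, was of the genotype Tg(fli1a:EGFP)y1, a line in which green fluorescent protein marks vessel cells, and each array measured total RNA from whole embryo lysate of a pool of 15 embryos. Exposure ran in sealed glass vials at 25 °C from about 3 hpf until collection. The comparison groups received embryo medium alone (control), 0.625 mM MTBE or 0.00625 mM MTBE over the same stages, again with 3 arrays per stage. According to the series' design text, 5 mM causes lesions of the vessels and lowers vegfa, no adverse effect was seen up to 0.625 mM, and embryos were staged by form at collection. Because embryos were taken at a given stage rather than at a given clock time, the comparison asks which gene programs run between the same landmarks under the highest dose. A whole lysate pools all tissues, so a change in the number of cells of a type and a change in RNA per cell cannot be told apart in any result.

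Between these stages the zebrafish embryo turns a body plan into working organs. Somites bud from the tailbud's presomitic mesoderm in time with an oscillating Notch circuit, and their cells leave the cycle under MyoD family factors and fill with sarcomeres. In the same hours the first red cells load globin, heart cells raise genes of contraction and the first neurons send out axons. The notochord and fins lay down collagen, and the patterning genes of gastrulation shut off.

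At 5 mM, from 6-somites to 21-somites, the largest rises included the muscle genes myl1, myhz1.3 and atp2a1, the globin genes hbbe3 and hbae3 and the collagen gene col1a1a. The largest falls included the eye field gene six7, the gastrula patterning gene szl and the ventral genes ved and vox. With limma and Benjamini-Hochberg adjusted p under 0.05, 1952 of the 15502 probe sets rose (12.6%) and 2335 fell (15.1%), or 27.7% in either direction. Without 21-somites 5 mM replicate 2 the counts were 1475 and 1405, and among the 9051 probe sets with a mean of 2.98 or more they were 1652 and 1450, so which direction was more frequent depended on both. Of changes over 2-fold, 470 were rises (3.03%) and 165 falls (1.06%), and with 50 added to the linear values these were 83 and 16. Read as 1 probe set per gene for the 8793 genes with a symbol, 1278 rose (14.5%) and 1394 fell (15.9%), with a median log2 change of -0.06, and these shares are the background for each gene list below. Rises made up 45.5% of the calls on the deposited values but 56.6% after cyclic loess normalization, which gave 2176 rises and 1671 falls. The medians of the 6 arrays ran from 3.49 to 3.58 on the log2 scale, replicates of a stage correlated at 0.9895 to 0.9952 over probe sets, and arrays of different stages at 0.9604 to 0.9713. A gene is called dim at a stage where its mean lay under 2.98, the mean log2 level over 36 arrays of the brighter of 2 control probe sets against red fluorescent protein, a transgene the labels do not give to this line. That level is a guide and not a detection limit. By it, the tissue markers myl1 of muscle, myl7 of heart, hbbe3 of red cells, elavl3 of neurons, col2a1a of notochord, krt4 of epidermis, tbx6 of tailbud and apoa2 of the yolk layer were above the dim range at 21-somites. The markers kdrl and tie1 of vessel lining, nkx2.5 of heart, snap25a of synapses and dct and mitfa of pigment cells were dim. The 3 arrays of one stage did not overlap the 3 of the other for 6491 probe sets (41.9%).

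**Figure D1:**
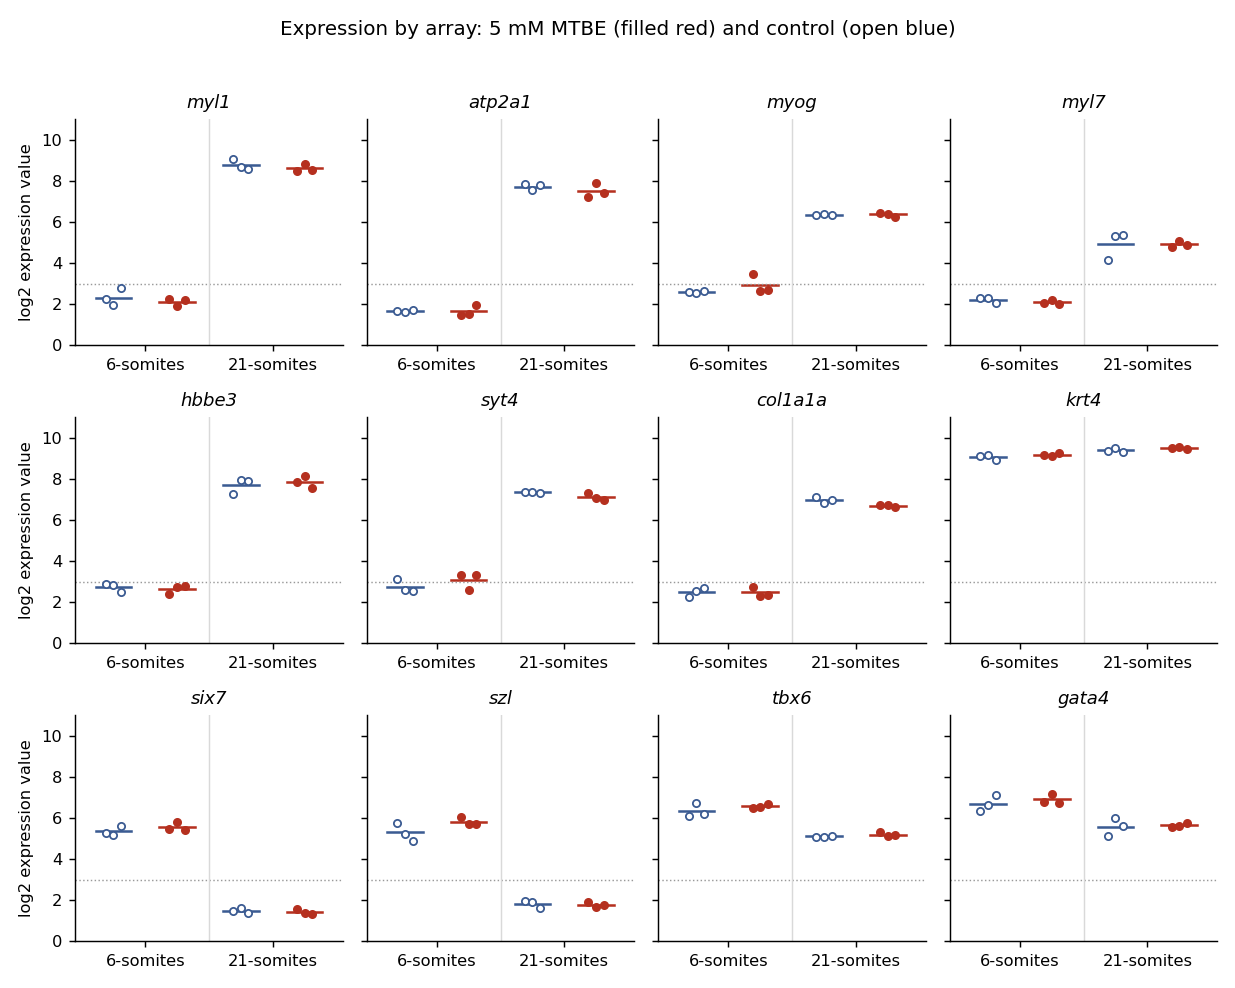
Log2 level (vertical axis) of 12 genes on each array, at 6-somites and 21-somites, for 5 mM MTBE (filled) and control (open) embryos; short lines mark group means and the dotted line marks the level of the brighter red fluorescent control probe set, 2.98. myl1 goes from about 2.09 to 8.6 at 5 mM, six7 falls from above 5 to below 2, and krt4 stays above 9 at that dose.

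Fast muscle genes were among the largest rises. Of 29 measured genes of the fast muscle sarcomere, 22 rose (75.9%), 18 of them over 2-fold, 1 fell and 6 did not pass, with a median log2 change of 1.74. The fast myosin light chain gene myl1 read 2.22, 1.89 and 2.17 at 6-somites and 8.47, 8.82 and 8.52 at 21-somites, all on the log2 scale. Its 2 stages were separated by more than 6 log2 units, the largest change of any named gene. The change was 6.51 ± 0.15 (3 arrays per stage, adjusted p = 3.38e-28). Here and below ± is the SE unless marked SD. The SE and the limma p rest on the spread within groups of all 36 arrays, not of these 6 alone. The fast myosin heavy chain gene myhz1.3 rose by 6.21 ± 0.17, and the calcium pump gene atp2a1, which returns calcium to the sarcoplasmic reticulum, went from 1.45, 1.51 and 1.96 to 7.22, 7.87 and 7.42. The calcium sensor of fast fibres, tnnc2.2, rose by 4.03 ± 0.14, the regulatory light chain gene mylpfa by 4.04 ± 0.16 and the tropomyosin gene tpma by 3.09 ± 0.16. The slow fibre myosin gene smyhc1 was already bright at 6-somites, at 6.48, 7.42 and 7.26, and reached 10.08, 10.28 and 9.96.

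Some fast muscle genes stayed low at both stages. The troponin I gene tnni2a.4 read 2.48, 2.65 and 2.80 at 6-somites and 2.34, 2.38 and 2.51 at 21-somites, and the arrays of the stages overlapped (adjusted p = 0.27). The fast troponin T gene tnnt3a rose by 0.77 ± 0.20 from a dim start, while its paralog tnnt3b was the 1 member that fell, by 0.59 on the log2 scale. Chaperones of myosin folding rose with the filaments: unc45b by 1.00 ± 0.14 and hsp90aa1.1 by 2.23 ± 0.11. The sarcomeric actin gene actc1b, at 3.39, rests on 4 probe sets of which the 2 dimmer pointed the other way without passing the test.

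Of 21 genes of calcium release and the neuromuscular junction, 9 rose (42.9%) and 1 fell, and 12 were dim at both stages. Beside atp2a1, the muscle intermediate filament gene desma rose by 2.31 ± 0.11, the sarcoplasmic reticulum gene srl by 2.79 ± 0.13 and the calcium channel subunit gene cacng1a by 2.25 ± 0.19. At the synapse, the acetylcholine receptor subunit gene chrna1 rose from 3.08, 2.96 and 3.10 to 4.13, 4.02 and 3.87. The receptor clustering kinase gene musk rose by 0.51 ± 0.15 while dim throughout. The parvalbumin gene pvalb2, a calcium buffer of fast fibres, reached only 3.05, 3.38 and 3.19.

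Of 19 regulators of muscle fate, 7 rose and 3 fell. The gene for the late myogenic factor, myog, which starts terminal differentiation, read 3.44, 2.65 and 2.67 at 6-somites and 6.44, 6.40 and 6.25 at 21-somites (3.44 ± 0.17, adjusted p = 7.68e-19). The early factor gene myod1 rose by 0.92 ± 0.13, and the gene of the other early factor, myf5, was dim and fell by 0.46 on the log2 scale. Of the cofactors, mef2d rose by 1.47 ± 0.13, and jam2a, a receptor for myoblast fusion, by 2.57 ± 0.16. A second probe set of mef2d rose by 0.63. The paraxial mesoderm genes hes6 and tcf15 changed by -1.07 ± 0.19 and -0.54 ± 0.15.

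Enzymes of energy supply rose in part. Of 43 genes of glycolysis and the energy buffer, 14 rose (32.6%) and 3 fell, with a median of 0.21. The creatine kinase genes ckma and ckmb, which buffer ATP in muscle, rose by 3.10 ± 0.17 and 2.36 ± 0.19, the muscle aldolase gene aldoab by 2.73 ± 0.15 and the adenylate kinase gene ak1 by 1.83 ± 0.15. For aldoab the arrays were tight, at 3.72, 3.79 and 3.69 against 6.45, 6.48 and 6.46.

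Of 24 genes of the heart list 8 rose and 5 fell, the median was -0.09, and 9 were dim at both stages. The ventricular myosin gene myh7 went from 1.94, 1.87 and 2.09 to 5.86, 6.18 and 5.98 (4.04 ± 0.16). The light chain gene myl7, which labels the whole heart tube, went from 2.03, 2.20 and 2.01 to 4.77, 5.08 and 4.86, the light chain gene cmlc1 rose by 3.25 ± 0.16 and the cardiac troponin T gene tnnt2a by 3.01 ± 0.17. All 3 late arrays of each lay above all 3 early ones. The 5 members that fell were all transcription factor genes of heart or endoderm specification. Of these, gata4 went from 6.79, 7.17 and 6.73 to 5.54, 5.59 and 5.77, nkx2.7 changed by -1.50 ± 0.16, gata5 by -0.82 ± 0.18, hand2 by -0.73 ± 0.17 and gata6 by -0.54 ± 0.14. The homeobox gene nkx2.5 was dim at both stages, at -0.23 ± 0.14 (adjusted p = 0.231).

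Red cell genes had more rises than falls. Of 35 genes 15 rose (42.9%), 10 of them over 2-fold, and 4 fell, with a median of 0.32. The embryonic beta globin gene hbbe3 read 2.38, 2.72 and 2.77 at 6-somites and 7.86, 8.12 and 7.56 at 21-somites (5.22 ± 0.17), and the alpha globin gene hbae3 rose by 4.44 ± 0.18. A second probe set of hbae3 rose by 2.7. Along heme synthesis, alas2, the first enzyme in red cells, rose by 1.41 ± 0.14, urod by 1.01 ± 0.14, cpox by 2.28 ± 0.15 and fech, which inserts the iron, by 0.62 ± 0.21. The gene uros, whose enzyme acts before that of urod in the same path, changed by -0.39 ± 0.14. The master regulator gene gata1a was dim at both stages and read 1.62, 1.99 and 1.67, then 2.04, 2.37 and 2.62. The carbonic anhydrase gene cahz fell from 4.02, 3.61 and 3.82 to 2.64, 2.63 and 2.70. The anion exchanger gene slc4a1a, a marker of later red cells, did not pass at 0.32 ± 0.17 and was dim.

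Leukocyte genes gave no common direction. Of 27 genes 6 rose, 3 fell and 14 were dim at both stages. The actin bundling gene lcp1, also named L-plastin, fell from 5.68, 5.84 and 6.06 to 3.34, 3.19 and 3.25 (-2.60 ± 0.16). Members with the next smallest p rose, with arhgdig at 0.94 ± 0.12, coro1a at 1.15 ± 0.17 and myb at 0.82 ± 0.16. A second probe set of coro1a lay at -0.04 without passing. The myeloid factor gene spi1b rose by 0.54 ± 0.15, and the peroxidase gene mpx of neutrophils read 2.80, 3.29 and 2.75, then 2.92, 2.92 and 3.27, with overlap (adjusted p = 0.749).

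The vessel list covers the tissue of the lesions that the design text names, but a stage change at 5 mM does not measure a difference from controls. Of its 37 genes 9 rose (24.3%), 6 fell (16.2%) and 22 did not pass, with a median of 0.08; over all genes the shares were 14.5% and 15.9%. In controls 6 rose and 5 fell, with a median of 0.19. The growth factor gene vegfaa, the signal that directs vessel sprouting, read 1.14, 1.36 and 1.48 at 6-somites and 1.98, 1.65 and 1.96 at 21-somites. The arrays of its stages did not overlap (0.53 ± 0.12, adjusted p = 0.00124). In controls vegfaa lay at 0.17 ± 0.12 (adjusted p = 0.358), and the difference of 0.36 between the changes did not pass (adjusted p = 0.469). Its mean level was 1.33 at 5 mM and 1.53 in controls at 6-somites, and 1.86 and 1.7 at 21-somites. The lower vegfa that the design text names is a difference between doses, which this stage comparison does not test. At both stages the probe set lay under both red fluorescent levels, so the size of the change in transcript is not known. Its receptor gene kdrl was also dim, going from 1.71, 1.77 and 1.42 to 2.29, 2.07 and 2.11 (0.53 ± 0.17, adjusted p = 0.0202). The kdrl call was lost without 6-somites 5 mM replicate 3 (adjusted p = 0.112), without 21-somites 5 mM replicate 1 (adjusted p = 0.0813) and with 50 added to the linear values (adjusted p = 0.0921). In controls kdrl lay at 0.44 ± 0.17 (adjusted p = 0.0631), and the difference of 0.09 did not pass (adjusted p = 0.922). The lymphatic growth factor gene vegfc did not pass at 0.33 ± 0.19 (adjusted p = 0.188), and vegfab was not found under that symbol.

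Other vessel genes had brighter probe sets. The LIM protein gene crip2 went from 4.16, 3.97 and 3.70 to 6.05, 6.28 and 6.03, the largest rise in the list. The lipid receptor gene s1pr1, which steadies sprouts, rose by 0.99 ± 0.17, the guidance receptor gene plxnd1 by 0.67 ± 0.14 and the tight junction gene cldn5a by 0.68 ± 0.14. The ETS factor genes erg and ets1 rose by 0.49 ± 0.16 and 0.46 ± 0.15, and fli1, whose promoter drives the reporter, lay at 0.38 ± 0.17 without passing (adjusted p = 0.0938). The venous receptor gene ephb4a changed by -0.52 ± 0.14 and the apelin receptor gene aplnra by -0.74 ± 0.12. The factor gene gata2a, shared by blood, vessel and epidermis, fell from 6.52, 5.89 and 5.72 to 4.20, 4.21 and 4.06.

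**Figure D2:**
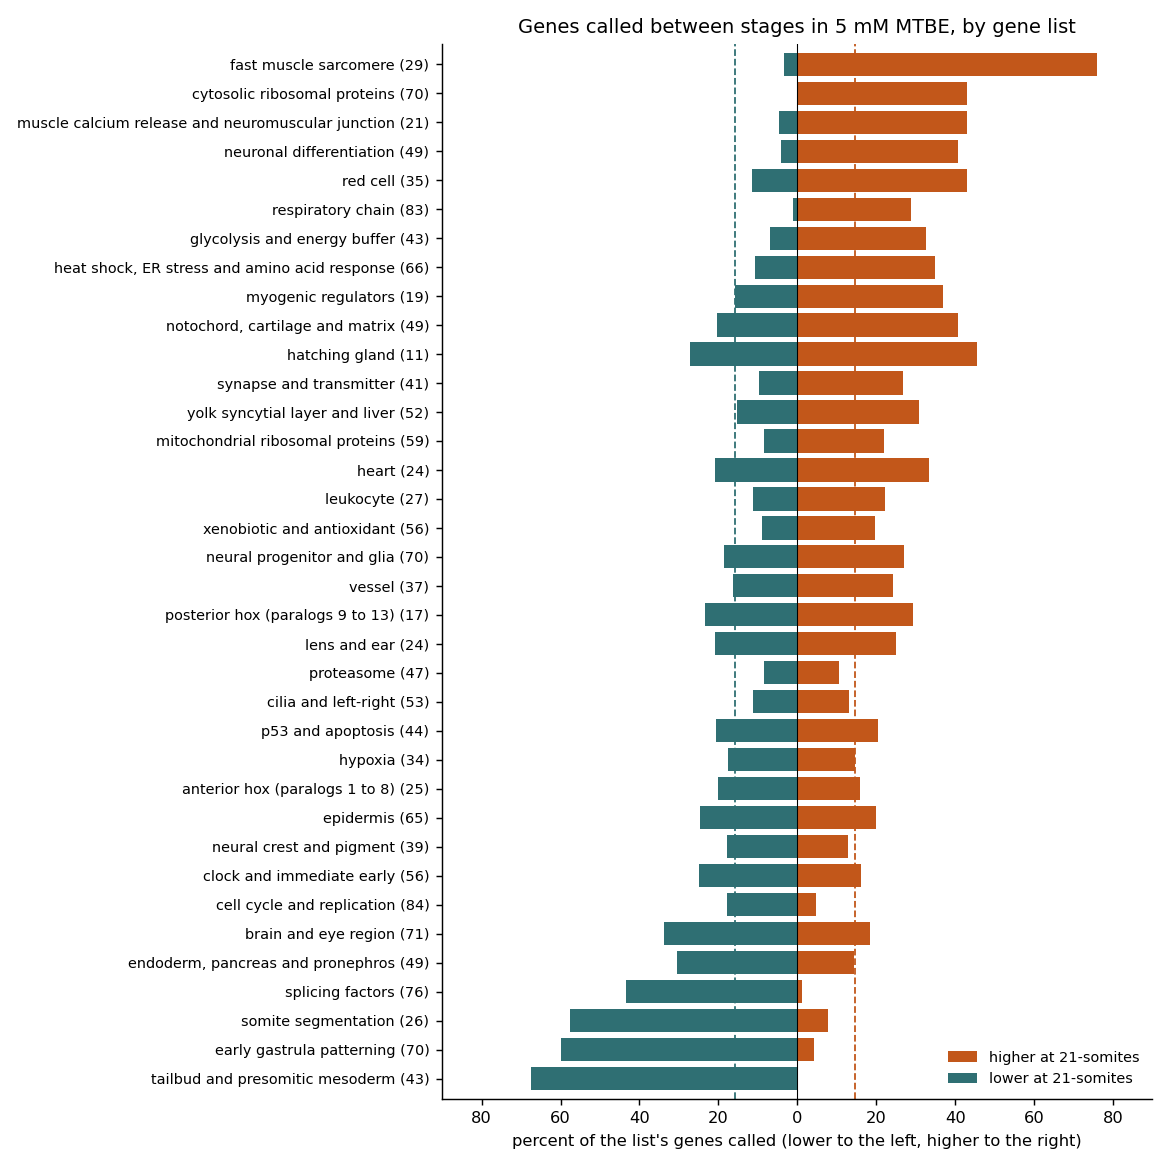
Percent of the measured genes in each of 36 gene lists that rose (right) or fell (left) from 6-somites to 21-somites at 5 mM by limma; the dashed lines mark the shares over all 8793 genes, 14.5% higher and 15.9% lower. The fast muscle sarcomere bar reaches 75.9% on the right, and the tailbud bar has no rises.

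Neuronal differentiation genes had more rises than falls. Of 49 such genes 20 rose (40.8%), 2 fell and 27 did not pass, with a median of 0.26. The pan-neuronal RNA binding gene elavl3 went from 7.16, 7.45 and 7.49 to 8.49, 8.31 and 8.33. Among genes of the growth cone, dpysl3 rose by 1.75 ± 0.13, dpysl5a by 2.30 ± 0.21, the microtubule regulator gene stmn1b by 1.97 ± 0.17, gap43 by 1.13 ± 0.14 and the guidance cue gene sema3d by 2.28 ± 0.17. The neuronal intermediate filament gene inaa went the other way, at -1.39 ± 0.16.

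Of 41 synaptic genes 31 were dim at both stages. In that list 11 rose (26.8%), 4 fell, and the median was -0.14 where controls gave 0.22. The synaptotagmin gene syt4 led, from 3.32, 2.56 and 3.29 to 7.29, 7.07 and 6.95 (4.04 ± 0.17). The neuronal sodium pump gene atp1a3a rose by 2.14 ± 0.15 and the vesicle fusion clamp gene cplx2a by 1.84 ± 0.16. A dimmer second probe set of atp1a3a rose by 0.5. The fusion protein gene snap25a rose by 0.96 ± 0.15 but reached only 2.36, 2.35 and 2.48. The synthetic enzyme gene gad1b of the transmitter GABA changed by -0.56 ± 0.15, again with all arrays under 2.98. Dim probe sets as a class moved down at 5 mM: the 4223 probe sets with a mean under 2.18, the lower red level, had a median change of -0.15, against -0.12 at 0.00625 mM, -0.07 at 0.625 mM and -0.02 in controls. Their part in the medians of the lists rich in dim genes was not tested.

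**Figure D3:**
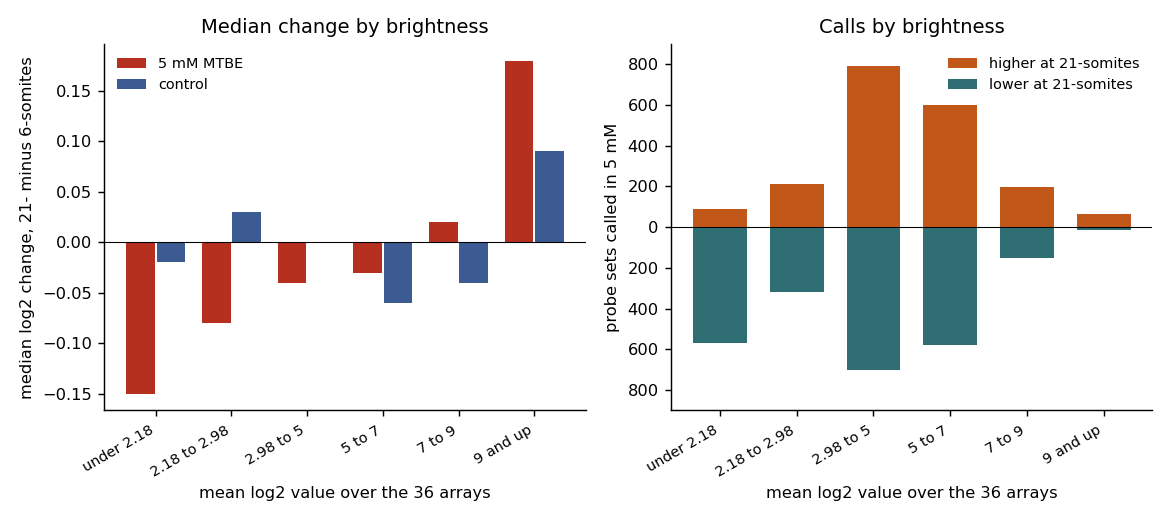
Median log2 change from 6-somites to 21-somites at 5 mM and in controls, and number of 5 mM calls each way, for probe sets grouped by their mean log2 level over 36 arrays. The dimmest class lies at -0.15 at 5 mM and -0.02 in controls, with 567 falls and 90 rises at 5 mM, and the brightest at 0.18 and 0.09; the doses not drawn lie at -0.07 and 0.13 (0.625 mM) and at -0.12 and 0.16 (0.00625 mM).

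Precursor and glial genes split. Of 70 genes of neural progenitors and glia 19 rose and 13 fell. The radial glia genes fabp7a and slc1a3a rose by 1.97 ± 0.17 and 1.78 ± 0.13, and the filament genes vim and gfap by 2.02 ± 0.14 and 0.72 ± 0.11. The proneural gene ascl1a and the Notch ligand gene dlb rose by 1.47 ± 0.15 and 1.22 ± 0.16. Among genes of the neural plate that fell were her3 at -1.52 ± 0.15, pax6b at -1.14 ± 0.12, sox19b at -0.72 ± 0.13 and sox2 at -0.66 ± 0.14. A dim second probe set of her3 lay at 0.19 without passing.

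Among 71 regional genes of brain and eye, 24 fell (33.8%) and 13 rose. The largest fall of the whole comparison among named genes was six7, a homeobox gene of the early eye field and forebrain, which went from 5.46, 5.80 and 5.39 to 1.57, 1.35 and 1.32 (-4.13 ± 0.15). A second probe set of six7 changed by -2.32. The eye field gene rx3 fell from 4.79, 4.23 and 4.61 to 2.73, 2.79 and 2.26, six3b changed by -1.20 ± 0.12 and the forebrain and midbrain gene otx2b by -1.23 ± 0.13. Of the signals that pattern the brain, fgf8a of the midbrain-hindbrain boundary changed by -1.37 ± 0.15. The hindbrain gene egr2b changed by -0.87 ± 0.16. The retina and lens regulator gene mab21l1 rose by 2.62 ± 0.18 from a dim start, and the forebrain and branchial arch gene dlx2a by 1.01 ± 0.18.

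In the lens and ear list of 24 genes, 6 rose, 5 fell and 14 were dim at both stages. The list member mafaa had the smallest p, with a rise of 3.86 ± 0.14, from 2.09, 2.57 and 2.07 to 5.95, 6.21 and 6.15. Which tissue the mafaa transcript came from was not tested. The lens crystallin genes cryaa and crybb1 were dim at both stages and did not pass (adjusted p = 0.679 and 0.568). The otic placode genes dlx3b and pax8 changed by -1.04 ± 0.15 and -0.96 ± 0.17.

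Neural crest and pigment genes, 39 in number, gave 5 rises (12.8%, against 14.5% over all genes) and 7 falls (17.9%, against 15.9%). The controls gave 11 rises and 4 falls, with a median of 0.08 against -0.07 at 5 mM. The interaction with controls called 0 of these genes, and 11 had an unadjusted p under 0.05 in it. The crest marker crestin rose from 4.62, 4.30 and 4.23 to 5.87, 5.75 and 5.87, and the brighter of 2 probe sets of inka1a from 3.17, 3.14 and 3.02 to 4.24, 4.10 and 4.30. The crest specifiers foxd3 and sox9b changed by -0.55 ± 0.12 and -0.83 ± 0.11. For foxd3 the control change was -0.03 ± 0.12, and the difference of the changes did not pass (-0.53, adjusted p = 0.306).

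Many extracellular matrix genes rose by large amounts. Of 49 genes of notochord, cartilage and matrix, 20 rose (40.8%), 16 of them over 2-fold, and 10 fell, with a median of 0.25. The collagen I gene col1a1a went from 2.73, 2.31 and 2.34 to 6.71, 6.74 and 6.64 (4.23 ± 0.16). A second probe set of col1a1a rose by 2.59. The notochord and cartilage collagen gene col2a1a, already at 5.52, 5.79 and 5.95, reached 8.29, 8.46 and 8.43. Other fibre genes rose by like amounts, with postnb at 3.69 ± 0.14, col5a2a at 3.63 ± 0.20, the tendon gene thbs4b at 3.60 ± 0.20, col9a2 at 3.19 ± 0.18 and the matrix signal gene ccn2a at 3.22 ± 0.16. Regulators of the early notochord fell, with noto at -1.46 ± 0.14 and tbxta at -0.69 ± 0.18, while shha of notochord and floor plate did not pass (0.13 ± 0.12, adjusted p = 0.449). Basement membrane and fibronectin genes of early tissue boundaries also fell, with lamb1a at -0.65 ± 0.11, lamc1 at -0.49 ± 0.13 and fn1a at -0.76 ± 0.15.

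Epidermal genes gave no common direction. Of 65 genes 13 rose (20%), 16 fell (24.6%) and 36 did not pass. The keratin gene krt4 rose slightly, from 9.18, 9.09 and 9.26 to 9.51, 9.56 and 9.46 (0.33 ± 0.10, adjusted p = 0.0101). The early enveloping layer gene lye fell from 8.19, 7.91 and 7.76 to 6.08, 6.19 and 6.14, and the non-neural ectoderm gene gata3 from 6.15, 6.39 and 5.89 to 3.88, 4.13 and 4.17. The calcium binding genes s100a10b and icn rose by 2.02 ± 0.15 and 2.01 ± 0.23. The basal keratinocyte factor gene tp63 changed by -0.68 ± 0.15. Of 11 hatching gland genes 5 rose and 3 fell, among them the secretory gene agr2 at 1.27 ± 0.17 and the organizer and prechordal plate gene gsc at -2.18 ± 0.18.

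Genes of the yolk syncytial layer and liver rose in 16 of 52 cases (30.8%), 13 of them over 2-fold, and fell in 8, with a median of 0.28. The fibrinogen genes, products of liver and yolk layer, rose together: fga from 2.78, 3.95 and 3.32 to 6.53, 6.92 and 6.46, fgb by 2.70 ± 0.29 and fgg by 2.31 ± 0.43. The lipid carrier gene apoea rose by 2.66 ± 0.30, the retinol carrier gene rbp4 by 2.27 ± 0.31 and the iron exporter gene slc40a1 by 1.79 ± 0.19. The lipid loading gene mttp and its regulator hnf4a changed by -0.86 ± 0.29 and -0.86 ± 0.22. The bright apolipoprotein genes apoa1a and apoa2 did not pass, at 0.64 ± 0.35 and 1.18 ± 0.54. As in every list, the standard errors come from the spread of all 36 arrays. Control replicate 1 was low in yolk genes at both stages. At 6-somites the list's mean log2 level was 4.51 there against 5.15 and 5.29 in its group. At 21-somites it was 4.61 against 5.78 and 5.74. The 5 mM arrays stayed within 5.09 to 5.25 and 5.49 to 5.81, and the part of control replicate 1 in the standard errors is not given here.

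Genes of endoderm, pancreas and pronephros fell in 15 of 49 cases (30.6%) and rose in 7, and 27 were dim at both stages. The kidney field genes lhx1a, pax8 and wt1a changed by -0.98 ± 0.13, -0.96 ± 0.17 and -0.60 ± 0.18. The kidney and ion cell sodium pump gene atp1a1a.4 rose by 1.44 ± 0.18. The pancreas gene pdx1 was dim and did not pass (-0.06 ± 0.13, adjusted p = 0.782), and the dim insulin gene ins changed by -0.36 ± 0.13.

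Every tailbud gene that passed the test fell: 29 of 43 fell (67.4%), 0 rose and 14 did not pass, with a median of -0.75. The presomitic T-box gene tbx6 went from 6.48, 6.51 and 6.67 to 5.29, 5.10 and 5.14 (-1.38 ± 0.14, adjusted p = 3.69e-10). The mesoderm progenitor genes tbx16 and msgn1 changed by -1.73 ± 0.15 and -1.41 ± 0.19, and the posterior homeobox gene cdx4 went from 8.33, 8.14 and 8.18 to 6.97, 6.74 and 6.85. A dim second probe set of tbx16 changed by -0.53. Signals of the tailbud fell with them, with wnt5b at -1.42 ± 0.14, fgf8a as above and the Wnt target gene sp5l at -1.47 ± 0.15. The largest falls in the list were the ventral homeobox genes ved and vox, at -2.40 ± 0.16 and -2.28 ± 0.16. These transcripts were lower, not gone: tbx6, msgn1 and cdx4 all stayed above 5 on every 21-somites array.

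Segmentation genes had more falls than rises. Of 26 segmentation genes 15 fell (57.7%) and 2 rose, with a median of -0.46. The oscillator gene her7 went from 5.51, 4.96 and 5.53 to 3.87, 3.83 and 3.45 (-1.61 ± 0.16), and its partner her1, dim at both stages, changed by -0.87 ± 0.14. The somite polarity gene mespba changed by -0.99 ± 0.16 and the Notch ligand gene dlc by -0.56 ± 0.14. The other ligand gene dld, also used by neurons, rose by 0.54 ± 0.16, and the Notch feedback gene nrarpb by 0.63 ± 0.14.

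Most genes of gastrula patterning fell. Of 70 genes 42 fell (60%) and 3 rose, with a median of -0.53. The ventral secreted regulator szl, also named sizzled, went from 6.02, 5.70 and 5.68 to 1.88, 1.65 and 1.76 (-4.04 ± 0.17, adjusted p = 3.05e-20). Its counterpart on the dorsal side, the BMP antagonist gene chrd, changed by -1.93 ± 0.16, and the ligand gene bmp7a went from 3.99, 4.16 and 4.60 to 2.29, 2.22 and 2.41. The ligand gene bmp2b changed by -0.53 ± 0.17, and bmp4, which later tissues also use, did not pass (-0.33 ± 0.16, adjusted p = 0.122). The pluripotency gene pou5f3 changed by -1.52 ± 0.16, and nanog by -0.95 ± 0.14 while dim. The 3 members that rose were bmp5 at 1.04 ± 0.13, the Nodal co-receptor gene tdgf1 at 0.95 ± 0.14 and the Nodal inhibitor gene lft2 at 0.58 ± 0.18. The other Nodal inhibitor gene, lft1, changed by -1.01 ± 0.17.

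Other large falls were found too. The orphan nuclear receptor gene nr6a1a fell from 8.24, 7.93 and 8.44 to 6.15, 5.76 and 6.19. The Wnt receptor gene fzd8b changed by -2.13 ± 0.13, the lipoxygenase gene alox5b.3 by -2.16 ± 0.16 and dusp2, a phosphatase gene of the immediate early list, by -2.02 ± 0.17. The gene si:ch211-152c2.3 went from 7.79, 7.31 and 7.47 to 3.85, 3.72 and 4.10. Of the 15 largest falls 9 ended under 2.98, and of the 15 largest rises 12 started under it. For those genes the log2 change is not an exact measure of the change in transcript.

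Hox genes moved without a common sign. Of 25 anterior genes 4 rose and 5 fell, with hoxb8a at 1.39 ± 0.14, hoxb1a at -0.93 ± 0.17 and hoxb7a at -0.80 ± 0.15. Of 17 posterior genes 5 rose and 4 fell, with hoxd11a at 1.12 ± 0.18 and hoxa9a at -0.83 ± 0.14. For hoxb8a another probe set rose by 0.66 and another, dim, did not pass at -0.05.

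Some large groups of growth and housekeeping genes moved by small amounts. Of 76 splicing factor genes 33 fell (43.4%) and 1 rose, with a median of -0.27, led by sf3b4 at -0.83 ± 0.15 and the small ribonucleoprotein gene snrpb at -0.72 ± 0.15; the exception was lsm4 at 0.68 ± 0.10. Of 84 cell cycle genes 15 fell (17.9%, against 15.9% over all genes) and 4 rose (4.76%, against 14.5%), with a median of -0.03. The control counts were 17 falls and 2 rises. The mitotic cyclin gene ccnb2 went from 5.18, 5.18 and 5.15 to 4.36, 4.33 and 4.53, and the replication licensing gene cdt1 changed by -0.59 ± 0.15. The replication clamp gene pcna and the proliferation marker gene mki67 did not pass, at 0.13 ± 0.10 and 0.10 ± 0.10. Of 83 respiratory chain genes 24 rose (28.9%) and 1 fell, led by the complex II subunit gene sdha at 1.12 ± 0.14, with the complex I gene ndufv1 at 0.77 ± 0.12.

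Of 70 cytosolic ribosomal protein genes 30 rose (42.9%) and 0 fell, by 0.24 to 0.50, with a median of 0.25. The gene rpl5a read 10.50, 10.42 and 10.59 and then 10.91, 11.07 and 11.02. In controls 2 rose and the median was 0.14. This count depended on scaling: 5 rose after quantile and 7 after cyclic loess normalization. The 220 brightest probe sets as a class, those with a mean of 9 or more, had a median change of 0.18. It was 0.16 at 0.00625 mM, 0.13 at 0.625 mM and 0.09 in controls. The class holds many of the ribosomal genes themselves, whose median level was 10.07, so it is not a separate background for them. The part of a shift of bright probe sets in the ribosomal count was not tested. Among proteasome genes 5 of 47 rose (10.6%) and 4 fell (8.51%), both under the shares over all genes, 14.5% and 15.9%. The controls gave 0 rises and 0 falls, and the interaction with controls called 0 of these genes. Among mitochondrial ribosomal protein genes 13 of 59 rose and 5 fell, where the controls gave 8 rises and 5 falls.

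Xenobiotic, antioxidant and hypoxia genes showed small or mixed change over this interval. Of 56 xenobiotic and antioxidant genes 11 rose (19.6%) and 5 fell, with a median of 0.09. The controls gave 5 rises and 4 falls, with a median of 0.08, and the interaction with controls called 0 of these genes. The aryl hydrocarbon target gene cyp1a was dim, at 1.77, 1.48 and 1.55 and then 1.48, 1.37 and 1.31 (adjusted p = 0.291). The quinone reductase gene nqo1 changed by -0.85 ± 0.14 against -0.82 in controls, and the glutathione transferase gene gsto2 rose by 1.12 ± 0.19 against 0.81. Of 34 hypoxia genes 5 rose (14.7%, against 14.5% over all genes) and 6 fell (17.6%, against 15.9%). The controls gave 3 rises and 2 falls. The hypoxia target genes ndrg1a and slc2a3a rose by 1.35 ± 0.16 and 1.38 ± 0.16, against 1.35 and 1.22 in controls, and the brightest of 3 probe sets of the factor gene epas1a rose by 0.65 ± 0.14, while the others did not pass at 0.24 and 0.06. The partner factor gene arnt2 fell from 6.05, 5.80 and 5.86 to 5.36, 5.18 and 5.10, where controls lay at 0.04 (difference -0.73, adjusted p = 0.256), and its second probe set lay at -0.06.

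Of 44 p53 and apoptosis genes 9 rose and 9 fell. The p53 target gene ccng1 rose from 7.93, 7.90 and 7.81 to 8.82, 8.99 and 8.73 (0.96 ± 0.14), against 0.40 in controls (difference adjusted p = 0.354), and tp53inp1 by 0.71 ± 0.12 against 0.58. The list member with the smallest p, phlda2, rose by 1.55 ± 0.21 against 1.43 in controls. Among the falls was diabloa, at -1.04 ± 0.16 against -1.26 in controls. The p53 inhibitor gene mdm2 did not pass at 0.30 ± 0.14. Of 66 genes of heat shock, endoplasmic reticulum stress and amino acid response 23 rose (34.8%, against 14.5% over all genes) and 7 fell. The median was 0.18. The controls gave 20 rises and 6 falls, with a median of 0.13. Among those that rose were chaperones of the secretory path, with calr at 1.14 ± 0.17, pdia3 at 1.00 ± 0.14 and hspa5 at 0.47 ± 0.16. The small heat shock gene hspb1 fell from 8.85, 8.60 and 8.40 to 6.71, 6.98 and 6.96. Of 56 clock and immediate early genes 9 rose and 14 fell, with dusp4 at -1.40 ± 0.18, and of 53 cilia genes 7 rose and 6 fell.

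Some bright probe sets changed by under 0.1 on the log2 scale. The brightest of 3 for the mitochondrial COX1 gene read 11.57, 11.55 and 11.37 and then 11.66, 11.57 and 11.48, but another rose by 0.33 and the last did not pass at 0.14. The chromatin gene hmgb2a and the RNA binding gene hnrnpa1b lay at 0.00 and 0.02.

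Most of the large changes were also called in controls. Control embryos shared no array with the 5 mM embryos, and 3505 probe sets changed between the same stages there, 1813 higher (11.7%) and 1692 lower (10.9%). Both sets of calls used the same variance for each probe set, from 1 limma fit, so they are not independent. The part of that in the shared calls was not tested. Of the 4287 calls at 5 mM, 3931 (91.7%) had the same sign in controls and 2283 were called there in the same direction, which is 53.3% of the 5 mM calls and 65.1% of the control calls. Of the 635 calls over 2-fold, 616 (97.0%) were called in the same direction in controls and 634 had the same sign. The exception was LOC567909, at 1.13 ± 0.28 against -0.18 (difference adjusted p = 0.275). Over the 15502 probe sets the changes correlated with a Pearson r of 0.865, or 0.901 among the 9051 at or above 2.98; probe sets are not independent replicates. The 15 largest rises and 15 largest falls at 5 mM were all called in the same direction in controls. By gene, 13.1% rose and 12.4% fell in controls, with a median of -0.02.

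**Figure D4:**
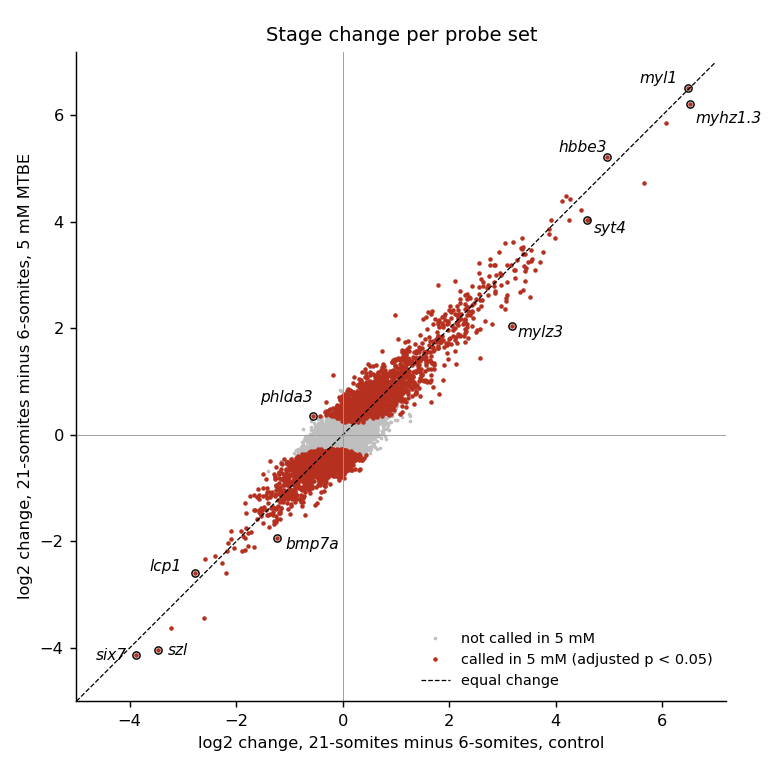
Log2 change from 6-somites to 21-somites in controls (horizontal) and at 5 mM (vertical) for each of the 15502 probe sets, with 10 genes labelled. Points follow the diagonal (Pearson r 0.865), with myl1 at 6.48 and 6.51 and six7 at -3.89 and -4.13; phlda3 lies at -0.56 and 0.36.

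The difference between the 5 mM and control changes was tested for each probe set as an interaction in the same limma fit, and 0 of 15502 passed. An unadjusted p under 0.05, a level that 775.1 would reach on average if no change differed, was reached by 1621 probe sets and the smallest adjusted p was 0.167. Against 0.625 mM the counts were 0 and 740, and against 0.00625 mM 0 and 585, with smallest adjusted p of 0.865 and 0.999; these 3 tests share the 5 mM arrays. The median standard error of such a difference was 0.2 on the log2 scale, against 0.141 for the 5 mM stage change, so the test resolved smaller effects less well.

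The genes with the smallest p in the control comparison were mylz3, phlda3 and krt91. The muscle myosin light chain gene mylz3 went from 3.75, 4.05 and 4.17 to 6.15, 6.20 and 5.74 at 5 mM, a rise of 2.04 ± 0.16 against 3.17 ± 0.16 in controls (difference -1.12, adjusted p = 0.167). Its changes at 0.625 and 0.00625 mM were 2.59 and 2.66. Without 6-somites control replicate 3, mylz3 passed (difference -1.33, adjusted p = 0.00477), as did 1 probe set without a gene name. The p53 target gene phlda3 read 4.53, 4.42 and 4.50 and then 4.83, 4.78 and 4.90 at 5 mM, against 4.91, 4.63 and 4.87 and then 4.12, 4.39 and 4.22 in controls. The 3 late 5 mM arrays lay above the 3 early ones and the control arrays ran the other way, at 0.36 ± 0.13 and -0.56 ± 0.13 (difference 0.92, adjusted p = 0.167). At 0.625 mM phlda3 changed by 0.35 and at 0.00625 mM by -0.37. The keratin gene krt91 lay at 0.10 against 0.87 in controls (difference adjusted p = 0.202), with a second probe set at -0.07. Against 0.625 mM the smallest p belonged to farp2 (-0.39 at 5 mM against -1.27), 1 dim probe set of 3 of si:dkey-260j18.2 (-0.80 against -0.05; the others lay at 0.14 and 0.12 at 5 mM and did not pass) and npr1b (-0.33 against 0.39, dim). Against 0.00625 mM it belonged to the collagen lysyl hydroxylase gene plod1a (0.02 against 1.25), phlda3 and the caspase gene casp8 (0.37 against -0.29, dim).

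Some other muscle genes had smaller changes at 5 mM than in controls, but none of these differences passed. The troponin T gene tnnt3a rose by 0.77 against 1.80 (adjusted p = 0.256 for the difference), mylpfa by 4.04 against 4.61 (0.393), aldoab by 2.73 against 3.39 (0.295) and ckmb by 2.36 against 3.04 (0.383). The reverse held for smyhc1, at 3.05 against 2.55 (0.404), and for hsp90aa1.1, at 2.23 against 1.90 (0.479). Smaller rises than in controls were also seen at 0.00625 mM, with mylpfa at 4.06, aldoab at 2.73 and ckmb at 2.62. At 0.625 mM mylpfa, aldoab and ckmb rose by 4.71, 3.19 and 3.04. The differences between these lower doses and controls were not tested. Over the 29 sarcomere genes the median was 1.74 at 5 mM and 1.82 in controls, with 22 and 21 rises. The mean log2 level of the list on each array was 4.06, 4.18 and 4.13 at 6-somites and 5.87, 6.08 and 5.96 at 21-somites under 5 mM, and 4.16, 4.05 and 4.25 and then 6.25, 6.01 and 6.09 in controls. The stages were far apart and the doses overlapped at both.

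Across the array 5 probe sets were called in opposite directions at 5 mM and in controls, and they are named here after their values were seen. Beside phlda3 they were the tubulin folding gene tbcb at 0.38 against -0.32, the neuropeptide gene vipb at -0.38 against 0.43, zgc:112966 at 0.36 against -0.43 and si:ch1073-287p18.1 at -0.44 against 0.40. None of the differences passed, with adjusted p = 0.256 for each of the last 4.

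Embryos of every dose were staged by form at collection, which by itself favours like advances between the stages, so the advance does not measure the rate of development. A stage score placed the arrays on a common scale between the stages. It is the mean log2 level of the 300 most strongly rising probe sets, less the mean of the 300 most strongly falling ones, from 6-somites to 21-somites in the embryos at 0.625 and 0.00625 mM, so that neither the 5 mM nor the control arrays chose its members. At 5 mM it read -1.83, -1.73 and -1.69 at 6-somites and 1.48, 1.67 and 1.48 at 21-somites, an advance of 3.29. In controls it read -1.60, -1.67 and -1.67 and then 1.68, 1.61 and 1.64, also an advance of 3.29. The difference in advance was 0.01 (exact two-sided permutation test over 400 arrangements of dose within stage, p = 0.935). At 6-somites the 5 mM mean of -1.75 ± 0.07 (SD, n = 3) lay below the control mean of -1.64 ± 0.04, with no overlap, by 0.1 (exact permutation p = 0.1, the smallest that 3 against 3 arrays allow). At 21-somites the means were 1.55 ± 0.11 and 1.64 ± 0.04 and the arrays overlapped (exact permutation p = 0.3).

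**Figure D5:**
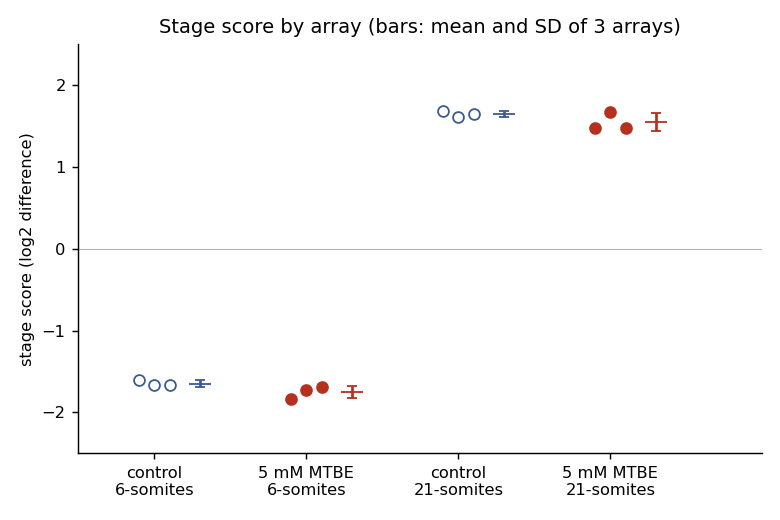
Stage score (log2 units) of each array at 6-somites and 21-somites for 5 mM and control embryos, with means and SD as bars (n = 3). Both doses advance by 3.29, from -1.75 to 1.55 at 5 mM and from -1.64 to 1.64 in controls.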

How the data were processed

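The authors deposited 1 table of log2 values per probe set and array, with 36 one-colour Affymetrix arrays in 12 groups of 3; its log2 scale was read from the values, which run from 0.599 to 13.24. Per the labels' protocols, total RNA was amplified (NuGEN) and biotin labelled; the background correction, summary and normalization of the deposited log2 values are not given in the sources. Arrays hold no counts, and their number limits the precision. The titles call the replicates biological, but do not name separate clutches, so a p-value measures no more than the spread of these pools.

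Groups were taken from the labels. Of 15617 probe sets, 115 control ones were left out. Platform annotation gave 10795 probe sets 1 symbol, 135 several and 4572 none; for a gene with several, the probe set with the highest mean over 36 arrays stood for it in a list. limma 3.58.1 (R 4.3.3; lmFit, eBayes) was fitted to all 12 groups with no filter, two-sided, adjusted by Benjamini-Hochberg over 15502 probe sets at 0.05, with interaction contrasts for differences between doses. The code was tested on simulated data. Tables and figures were made with Python 3.11.15.

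Same-numbered 5 mM samples of the 2 stages deviated together from their group means (r = 0.228, 0.237 and 0.111). Same-numbered control samples gave 0.5, 0.235 and 0.196, but control replicate 2 at 6-somites against replicate 3 at 21-somites gave 0.253. These values do not settle whether the numbers, which come from the sample titles, pair the samples. The main fit used no pairing, and the replicate block was an alternative fit. By rule, the genes to name were the 15 largest rises and falls without overlap of arrays and the 4 list members with the smallest p. Members that complete a pathway, the 3 smallest p of each interaction, 3 abundant steady genes, and vegfaa, vegfab, vegfc and kdrl were added. Not every gene that these rules picked is given above. The comparison, the gene lists, which share some genes, and these rules were chosen with earlier results of these data known. Alternatives were other normalizations, filters, fits and arrays left out.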

Additional observations from a re-analysis of the deposited data

How the results depend on the processing

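Counts of probe sets that rose and fell at 5 mM were 1908 and 2188 after quantile normalization, 2176 and 1671 after cyclic loess, and 2060 and 2456 with the replicate block. The block changed no call among the 165 named probe sets described below. Among probe sets whose level was at least the median 1507 rose and 1334 fell, and among those at or above the red fluorescent level, a limit added after seeing the data, 1652 rose and 1450 fell; fewer probe sets are counted there. Leaving out 1 of the 6 arrays gave 1475 to 1882 rises and 1405 to 2145 falls, the lowest of each without 21-somites 5 mM replicate 2, with 438 to 513 rises and 152 to 182 falls over 2-fold. With 50 added to the linear values, which damps dim probe sets, 83 rises and 16 falls were over 2-fold, and 100 falls were with only the brighter probe sets. The interaction with controls gave 0 to 2 calls over arrays left out, the 2 without 6-somites control replicate 3, and 0 in the other settings. The stage advance was 4.68 at 5 mM and 4.65 in controls with 100 probe sets each way, and 1.95 and 1.88 with a larger set. Leaving out an array gave 3.23 to 3.33 at 5 mM, 3.27 to 3.31 in controls and a difference of -0.05 to 0.04. Alternatives were computed for 165 probe sets of named genes, picked by size of change, by smallest p, as steady or by fixed name. Other genes given above, such as members that complete a pathway, were not followed singly. Of 2329 alternative values of the 165 probe sets, 2324 kept their direction and call and 0 reversed. Calls were lost in 4 (3 for kdrl, at 0.04, 0.46 and 0.42, and rpl13a at 0.24, adjusted p = 0.0507, after quantile normalization). In 1 a call was gained (mylz3 against controls). Counts of list members moved by over 1.5 times for ribosomal protein genes, as given, and for falls after cyclic loess in muscle calcium release (0), neuronal differentiation (1), clock (9), mitochondrial ribosomal (3) and proteasome genes (1). Dim probe sets limit what levels near 2.98 can show; the causes of these shifts were not tested.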

Other observations

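The array carries a control probe set for a destabilized green fluorescent protein, a relative of the reporter in this line. At 5 mM it read 2.85, 2.62 and 2.65 at 6-somites and 2.27, 2.41 and 2.98 at 21-somites on the log2 scale, and the stages overlapped. Its mean over the 36 arrays was 2.71, between the levels of the red fluorescent control probe sets, 2.18 and 2.98.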
